A study of Mus musculus with 16 samples.

Results

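Gadd45a, Gadd45b, Gadd45g, Btg2, Ppp1r15a and Sertad1 are 6 stress and growth arrest genes, taken by symbol from a table of 14829 genes measured in mouse hematopoietic stem cells. All 6 were in the table, and all 6 passed the filter on low counts in every comparison. The study asked how stem cells from young and old mice respond to dmPGE2, a long-lived analogue of prostaglandin E2. Bone marrow of 4 young and 4 old mice was taken, the sample of each mouse was divided between vehicle and dmPGE2 for 1 h at 37 °C, and the stem cells were then sorted and sequenced. This gave 4 groups of 4 libraries: young with vehicle, young with dmPGE2, old with vehicle and old with dmPGE2. No strain, genotype, sex, dose or age in months was used here, and no allele or agent other than dmPGE2 and its vehicle distinguished the groups. Cells were handled outside the animal in both arms, so the vehicle libraries also come from cells held for 1 h. The sample descriptions carry 2 dates, called date 1 and date 2 below, with 2 young and 2 old mice on each. What was done on those dates is not stated.

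The Gadd45 proteins are small acidic stress sensors without enzyme activity of their own. They bind the kinase MTK1 (gene Map3k4) upstream of p38 and JNK, and they also bind PCNA, p21 and the CDK1 and cyclin B1 complex. Gadd45a is a classical p53 target, Gadd45b a classical NF-kB and TGF-beta target, and Gadd45g is induced by cytokines. Btg2 is an antiproliferative p53 target of the BTG/TOB family that recruits the CCR4-NOT deadenylase to mRNAs. Ppp1r15a, also called GADD34, directs protein phosphatase 1 to eIF2alpha and so ends the translational block of the integrated stress response. Sertad1 binds CDK4 and acts as a cofactor of E2F. In blood-forming cells such genes are known from responses to DNA damage and cytokines.

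Library totals ran from 12960704 to 19226963 counts. All 12 stem cell markers looked up were present, with a summed level of 3210 to 6028 CPM (the count of a gene relative to the total of its library, scaled by TMM). The 12 neutrophil and granule markers summed to 124 to 311 CPM in the 8 libraries of date 1 and to 1828 to 4262 CPM in the 8 libraries of date 2. On date 1, Camp, Mmp8 and Fcnb reached at most 0.399, 0.219 and 0.110 CPM, while Mpo reached 21.2 and Prtn3 303 CPM. Prtn3 alone held at least 108 CPM in every library. Summed monocyte and macrophage markers were 562 to 805 CPM on date 1 and 1004 to 1809 CPM on date 2. For T and NK cell markers, of which 10 of 12 were in the table, the sums were 77.4 to 195 CPM and 239 to 427 CPM. Klrb1c and Nkg7 reached 156 and 81.0 CPM on date 1, while Cd3d, Cd3e and Cd3g reached at most 0.219, 0.164 and 0.114 CPM. Of these 10 markers 9 were called higher on date 2 in each arm, with median log2 changes of 6.26 with vehicle and 6.62 with dmPGE2. Of the tested granule markers, 10 of 11 were called higher on date 2 with vehicle and 10 of 10 with dmPGE2. The granule medians were 7.60 and 6.80. Erythroid markers, 9 of 12 in the table, summed to 1640 to 2079 CPM and 2026 to 3464 CPM, of which Car2 alone held 1575 to 2049 CPM. Of the 9, 8 were called higher on date 2 with vehicle and 7 with dmPGE2, with median log2 changes of 3.80 and 4.36. Of the 12 stem cell markers, 8 were called lower on date 2 in each arm, against 3.01% of all genes with vehicle and 4.05% with dmPGE2. B cell markers summed to 43.98 to 62.2 CPM and 56.7 to 143 CPM, with Pax5 at 0 in the libraries of date 1. Of 12 monocyte and macrophage markers, 6 were called higher on date 2 with vehicle and 10 with dmPGE2. Of the tested B cell markers it was 3 of 7 and 6 of 8. In sorted bulk RNA a change in the share of cells of a type cannot be told apart from a change in RNA per cell. The part of these markers in any result below was not tested, except where a value is given beside it.

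The 300-base promoter windows of the 4 genes that rose with dmPGE2 are shown because 2 of them hold the full cAMP response element TGACGTCA, the site of CREB, a factor activated by cAMP, the second messenger of the prostaglandin receptors EP2 and EP4. Each window runs from 250 bases before to 50 bases after the start annotated by RefSeq on GRCm38.p6, 5′ to 3′ on the strand of the gene. Capitals mark TGACGTCA and its shorter form TGACG, searched on both strands like all other motifs but TATAAA. The windows are chr1:134079106-134079405 (minus strand) for Btg2, chr7:45526219-45526518 (minus strand) for Ppp1r15a, chr10:80929841-80930140 (plus strand) for Gadd45b and chr7:27486703-27487002 (plus strand) for Sertad1.
Btg2: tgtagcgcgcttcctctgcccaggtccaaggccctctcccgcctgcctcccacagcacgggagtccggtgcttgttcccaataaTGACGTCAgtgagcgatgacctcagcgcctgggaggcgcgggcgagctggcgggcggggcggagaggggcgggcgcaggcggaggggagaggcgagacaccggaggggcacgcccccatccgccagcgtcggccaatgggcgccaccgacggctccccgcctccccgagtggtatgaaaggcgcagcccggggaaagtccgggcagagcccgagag
Ppp1r15a: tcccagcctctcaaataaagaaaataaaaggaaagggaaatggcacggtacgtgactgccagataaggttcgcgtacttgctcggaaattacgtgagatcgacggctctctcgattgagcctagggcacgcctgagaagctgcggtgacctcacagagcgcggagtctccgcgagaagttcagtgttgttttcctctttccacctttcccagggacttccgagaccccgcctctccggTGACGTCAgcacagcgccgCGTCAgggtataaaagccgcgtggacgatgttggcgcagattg
Gadd45b: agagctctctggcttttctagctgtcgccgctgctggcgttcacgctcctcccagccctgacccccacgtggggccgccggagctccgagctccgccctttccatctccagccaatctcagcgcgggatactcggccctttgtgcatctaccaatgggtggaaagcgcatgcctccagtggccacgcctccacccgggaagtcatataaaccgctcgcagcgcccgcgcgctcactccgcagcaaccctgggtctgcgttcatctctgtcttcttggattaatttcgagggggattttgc
Sertad1: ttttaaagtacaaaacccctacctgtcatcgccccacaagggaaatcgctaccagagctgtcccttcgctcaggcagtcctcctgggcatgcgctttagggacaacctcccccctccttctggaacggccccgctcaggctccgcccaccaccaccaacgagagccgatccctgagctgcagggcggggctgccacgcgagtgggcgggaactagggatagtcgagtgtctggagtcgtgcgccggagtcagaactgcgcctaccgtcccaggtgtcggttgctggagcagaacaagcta

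In Btg2 the full element lay 166 to 159 bases before the start. In Ppp1r15a it lay 12 to 5 bases before the start, and a further TGACG, on the other strand, lay 7 to 11 bases after it. The windows of Gadd45a, Gadd45b, Gadd45g and Sertad1 held neither form. Of 32851 windows of this length in the RefSeq table, 588 held TGACGTCA (1.79%) and 20.81% held TGACG on either strand, overlapping matches of both forms included. No window of the 6 genes held the AP-1 site TGANTCA (7.808% of all windows), a CArG box (1.629%) or an NF-kB site (6.925%). CCAAT, found in 37.41% of all windows, was present for Btg2, Gadd45a, Gadd45b and Gadd45g. TATAAA, searched on the strand of the gene alone, was found in 8.319% of all windows. It lay 46 to 41 bases before the start in Gadd45b, 27 to 22 before it in Gadd45g and 15 to 20 bases after it in Ppp1r15a. All distances are from the annotated start, and the start used in these cells was not measured. These matches describe letters in a window and say nothing of binding.

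**Figure D1:**
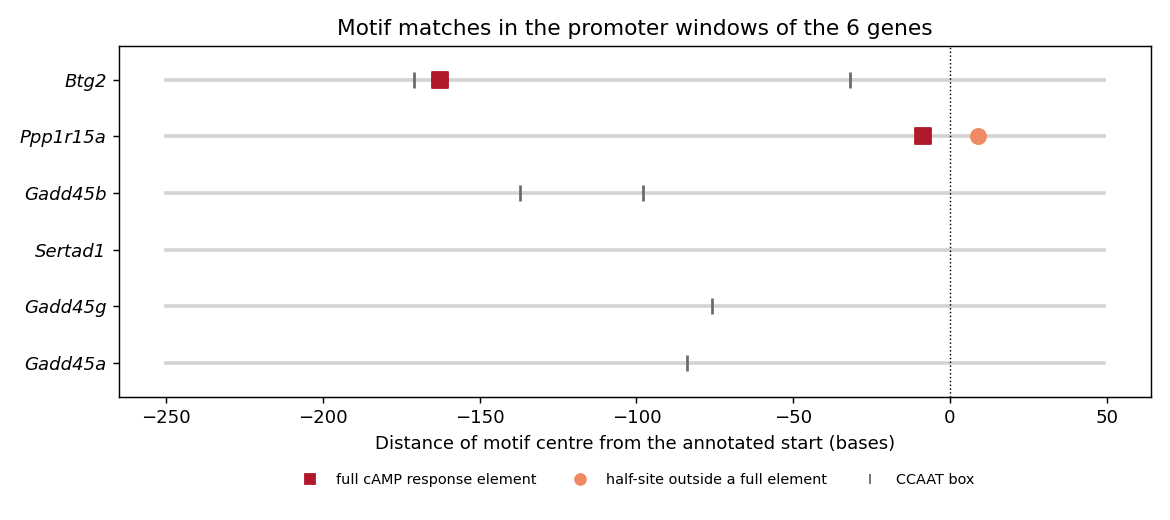
Motif matches in the promoter windows of the 6 genes, with the distance of the motif centre from the annotated start in bases on the x axis and 1 line per gene. Squares mark the full cAMP response element, the circle its shorter form outside a full element, and ticks the CCAAT box; Btg2 and Ppp1r15a carry the squares, and Sertad1 carries no mark.

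In the deposited table (mm10) Btg2 spans chromosome 1 from 134074865 to 134079155 with 2 exons, and Ppp1r15a chromosome 7 from 45522917 to 45526268 with 3 exons, both on the minus strand. Gadd45b lies on chromosome 10 from 80930091 to 80932204, Gadd45g on chromosome 13 from 51846675 to 51848474 and Gadd45a on chromosome 6 from 67035096 to 67037407, with 4 exons each. Sertad1 lies on chromosome 7 from 27486953 to 27490314 with 2 exons. The levels of the 6 genes differed widely. Per kilobase of exon, the mean over the 8 vehicle libraries was 249 CPM per kb for Btg2 (SD 251) and 214 for Ppp1r15a (SD 135). Sertad1 followed at 54.8 CPM per kb (SD 15.1). The 3 Gadd45 genes were lowest, with Gadd45g at 20.1 (SD 15.6), Gadd45a at 17.7 (SD 8.26) and Gadd45b at 12.3 CPM per kb (SD 7.35). The ranges of every pair of neighbours in this order overlapped. Within a library, Ppp1r15a was above Sertad1 and Sertad1 above Gadd45g in 8 of 8 vehicle libraries. Btg2 was above Ppp1r15a in 4 of 8, Gadd45g above Gadd45a in 4 of 8 and Gadd45a above Gadd45b in 6 of 8, so the order within these pairs changed between libraries. All further levels are in CPM, which compares 1 gene between libraries.

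dmPGE2 raised Btg2, Ppp1r15a, Gadd45b and Sertad1 in 8 of 8 mice, while Gadd45g was higher in 6 of 8 mice and Gadd45a in 3 of 8. The size of the rise differed between the dates, as tested below. On date 1, all 4 genes that rose passed the test, which is 4 of 6 against 2.42% of all 13942 genes called higher in that comparison. On date 2, Btg2, Ppp1r15a and Sertad1 passed, 3 of 6 against 0.366% of all genes.

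Btg2, the CCR4-NOT adaptor, had the widest range. In the vehicle libraries of date 1 it stood at 89.3 and 69.1 CPM in the young mice and at 395 and 383 CPM in the old mice. The dmPGE2 libraries of the same mice held 1522, 1423, 3889 and 4263 CPM. No dmPGE2 library of date 1 overlapped a vehicle library of that date, and each mouse rose 9.85- to 20.6-fold. On date 2 the vehicle libraries already held 866 and 739 CPM in young and 2446 and 1146 CPM in old mice. With dmPGE2 they held 1758, 1374, 3489 and 2171 CPM, so each mouse rose 1.43- to 2.03-fold and the arms overlapped in old mice. The log2 change was 3.81 ± 0.08 (SE, 4 mice, adjusted p = 6.36e-11) on date 1 and 0.84 ± 0.07 (adjusted p = 2.23e-04) on date 2.

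Ppp1r15a, the eIF2alpha phosphatase subunit, also rose more on date 1. Vehicle levels on date 1 were 161 and 130 CPM in young and 365 and 358 CPM in old mice. dmPGE2 brought them to 918, 829, 1387 and 1498 CPM. On date 2 the vehicle levels were 622, 544, 1076 and 729 CPM and the dmPGE2 levels 931, 747, 1364 and 1170 CPM, in the same order of mice. The dmPGE2 libraries of the 2 dates thus overlapped over both ages together, though in old mice those of date 2 lay below those of date 1. The vehicle libraries of date 1 were all below those of date 2. The rise was 2.29 ± 0.06 log2 units on date 1 (adjusted p = 6.70e-10) and 0.52 ± 0.06 on date 2 (adjusted p = 0.00248).

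Gadd45b, the NF-kB-inducible member of its family, rose in young mice on date 1 from 5.94 and 8.27 CPM to 18.5 and 17.1 CPM. In the old mice of that date it went from 13.1 and 14.1 CPM to 63.0 and 56.5 CPM. On date 2 young mice went from 13.0 and 12.6 CPM to 26.6 and 15.6 CPM, and old mice from 35.5 and 21.7 CPM to 54.9 and 39.9 CPM. Young and old libraries did not overlap within an arm, and within each age the dmPGE2 libraries were above the vehicle libraries. The log2 change was 1.74 ± 0.17 on date 1 (adjusted p = 5.33e-05). On date 2 it was 0.72 ± 0.16, which did not pass edgeR's test (adjusted p = 0.133). DESeq2 gave 0.71 ± 0.20 there and called it (adjusted p = 0.0313).

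Sertad1, the CDK4-binding protein, had the smallest rise of the 4 on date 1. There it went from 49.5 and 51.9 CPM to 111 and 94.5 CPM in young mice and from 65.8 and 64.7 CPM to 174 and 189 CPM in old mice. On date 2 it went from 60.0 and 52.3 CPM to 107 and 76.3 CPM in young mice and from 105 and 71.5 CPM to 159 and 97.0 CPM in old mice. The arms did not overlap on date 1 and overlapped in the old mice of date 2. The log2 change was 1.24 ± 0.09 on date 1 (adjusted p = 3.46e-06) and 0.61 ± 0.09 on date 2 (adjusted p = 0.00858). Without young mouse 483 or without old mouse 485 the date 2 change was 0.53 and 0.56 and did not pass (adjusted p = 0.0702 and 0.101).

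**Figure D2:**
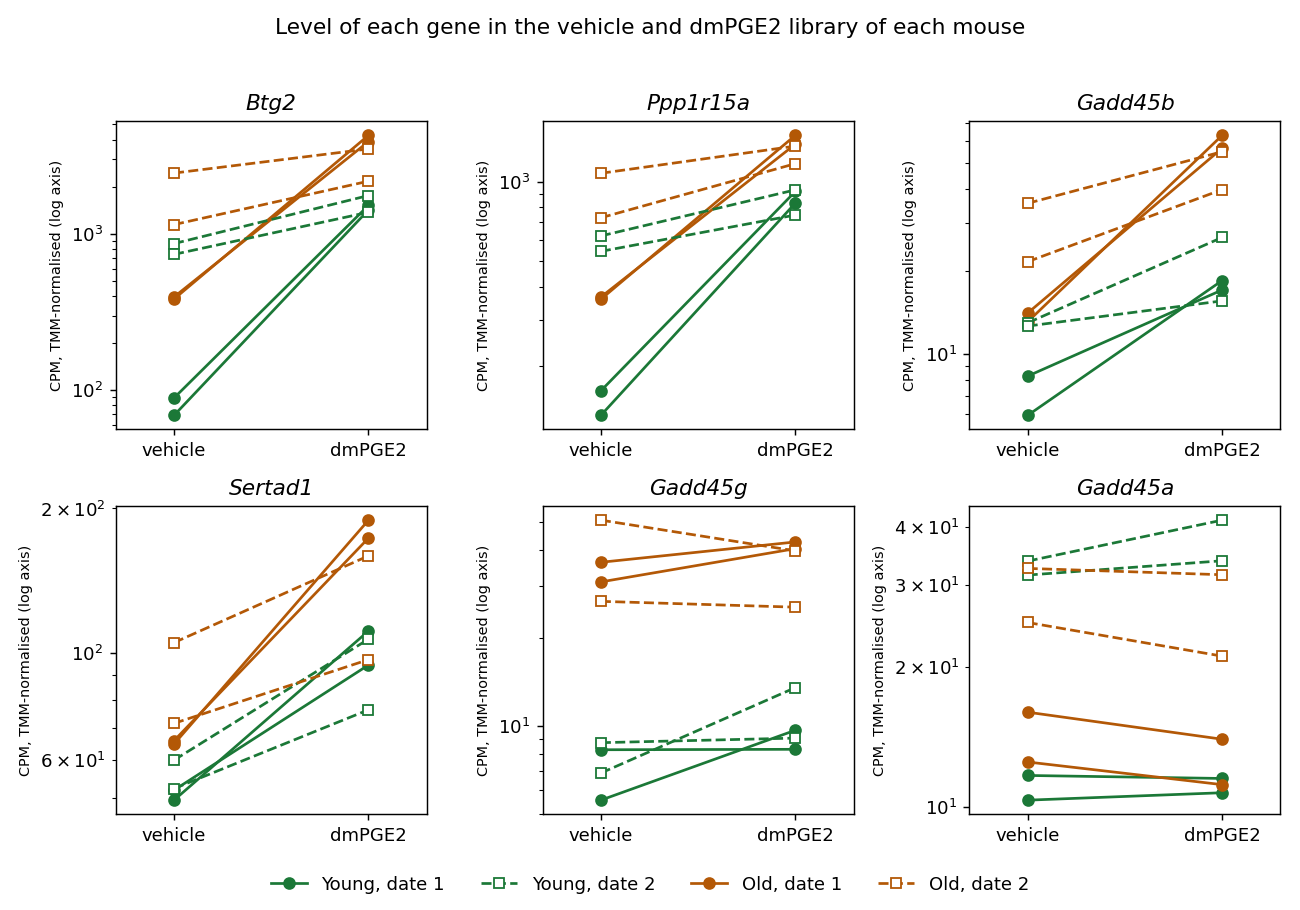
Level of each gene in CPM (log axis) in the vehicle and the dmPGE2 library of each mouse, joined by a line; colour gives age, solid lines with filled circles are date 1 and dashed lines with open squares date 2. Lines of Btg2 and Ppp1r15a start low and climb steeply on date 1 and start high on date 2. Their dmPGE2 levels overlap between the dates over both ages together, and in old mice are lower on date 2.

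The other 2 genes gave no called response to dmPGE2. Gadd45g, the cytokine-inducible family member, changed by 0.35 ± 0.18 log2 units on date 1 (adjusted p = 0.454) and 0.15 ± 0.19 on date 2 (adjusted p = 0.877). Among the young mice it went from 5.56 to 9.65 CPM in mouse 477 and from 6.88 to 13.5 CPM in mouse 483, but only from 8.27 to 8.30 CPM and from 8.75 to 9.07 CPM in the other two. In old mice it went from 36.3, 31.1, 50.5 and 26.6 CPM to 42.6, 40.4, 39.7 and 25.5 CPM. Gadd45a, the classical p53 target, changed by -0.08 ± 0.14 on date 1 (adjusted p = 0.886) and 0.03 ± 0.13 on date 2 (adjusted p = 0.979). Its largest move in either direction was a 1.22-fold rise in mouse 483.

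The dates differed in the response itself. Date 2 minus date 1, the difference in log2 change was -2.97 ± 0.10 for Btg2 (adjusted p = 1.68e-08), -1.78 ± 0.09 for Ppp1r15a (adjusted p = 2.89e-07) and -0.64 ± 0.12 for Sertad1 (adjusted p = 0.0302). Those 3 of 6 compare with 1.01% of all genes called lower. For Gadd45b the difference was -1.02 ± 0.23 and did not pass with edgeR (adjusted p = 0.0761), while DESeq2 gave -1.02 ± 0.28 and called it (adjusted p = 0.0170). For Gadd45a and Gadd45g it was 0.11 ± 0.19 and -0.20 ± 0.26. The call for Sertad1 was lost without any one of mice 477, 479, 480, 484, 485 or 486, with adjusted p of 0.0733 to 0.212. Without mouse 483 the difference for Gadd45b was -1.21 and passed (adjusted p = 0.0337).

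Over all 8 mice, 2 of 6 genes passed, against 0.509% of all genes called higher. Gadd45b rose 2.33-fold (log2 1.22 ± 0.19, adjusted p = 0.0169) and Sertad1 1.90-fold (log2 0.93 ± 0.12, adjusted p = 0.0126). Btg2 at 2.32 ± 0.68 and Ppp1r15a at 1.40 ± 0.38 had larger mean changes but did not pass (adjusted p = 0.254 and 0.222). Their SE covers the gap between the dates, since this fit has dmPGE2 terms by age only. With terms by age and date the mean changes were 2.32 ± 0.05 and 1.40 ± 0.04, and both passed (adjusted p = 1.27e-10 and 2.34e-09). Without any one of mice 477, 478 or 479 neither Gadd45b nor Sertad1 passed, and without mouse 480 Sertad1 alone did. In those 4 fits the Gadd45b change was 1.08 to 1.21 and the Sertad1 change in the first 3 was 0.86 to 0.92.

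**Figure D3:**
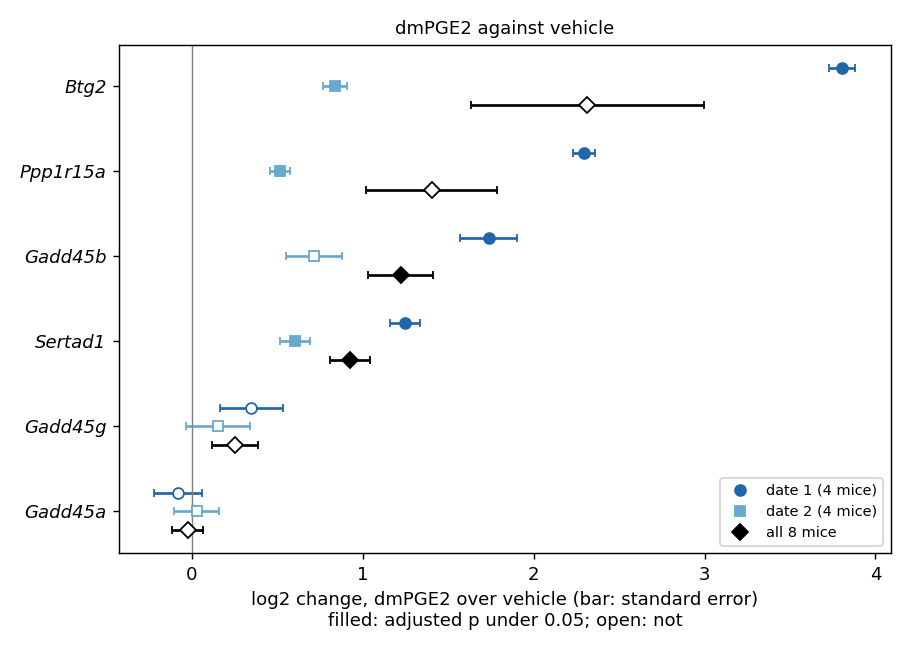
log2 change of each gene, dmPGE2 over vehicle, on the x axis, with the standard error as a bar, for the 4 mice of date 1, the 4 mice of date 2 and all 8 mice; filled symbols passed the test. The date 1 points of Btg2 and Ppp1r15a lie far to the right of their date 2 points, and the all-mice points between them have long bars.

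Within each age, over both dates, edgeR's quasi-likelihood test called 0 of 6 genes in young mice and 0 of 6 in old mice, where 0% of all 13942 genes were called in either. At an unadjusted p under 0.05 it counted 1785 genes in young and 1096 in old mice. DESeq2 called 277 and 114 genes. Of the 6 genes it called 3 in young mice (Gadd45b, Ppp1r15a and Sertad1) and 2 in old mice (Gadd45b and Sertad1). Within date 1, Btg2 rose by 4.23 ± 0.11 log2 units in young and 3.39 ± 0.10 in old mice, and Ppp1r15a by 2.59 ± 0.09 and 1.996 ± 0.088. Gadd45b rose by 1.34 ± 0.24 in young and 2.14 ± 0.23 in old mice, and Sertad1 by 1.02 ± 0.12 and 1.47 ± 0.12. All 8 of these changes passed the test. Within date 1 it called 249 of the 13942 genes in young and 247 in old mice. Within date 2, Btg2 (0.96 ± 0.10), Ppp1r15a (0.52 ± 0.09) and Sertad1 (0.69 ± 0.12, adjusted p = 0.0499993) passed in young mice. In old mice Btg2 passed (0.72 ± 0.10). Ppp1r15a (0.51 ± 0.09) and Sertad1 (0.52 ± 0.12) did not pass there (adjusted p = 0.0561 and 0.312). Gadd45b did not pass in young (0.68 ± 0.24) or old mice (0.75 ± 0.22, adjusted p = 0.397 and 0.483). Within date 2 the test called 47 genes in young and 19 in old mice.

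The difference between old and young mice in the response, the age by dmPGE2 interaction, was called for 0 of 6 genes and for 0% of all genes by edgeR. At an unadjusted p under 0.05 edgeR counted 955 genes, and DESeq2 called 17 genes, none of the 6. Over both dates the interaction was -0.52 ± 1.34 for Btg2, -0.30 ± 0.76 for Ppp1r15a, 0.43 ± 0.38 for Gadd45b and 0.14 ± 0.23 for Sertad1. For Gadd45a and Gadd45g it was -0.27 ± 0.18 and -0.40 ± 0.27. Within date 1 it was -0.84 ± 0.14 for Btg2 (adjusted p = 0.114) and -0.60 ± 0.12 for Ppp1r15a (adjusted p = 0.313). The fold values of these 2 genes were lower in old mice, and their vehicle levels higher. For Gadd45b and Sertad1 the date 1 values were 0.80 ± 0.33 and 0.46 ± 0.17 (adjusted p = 0.941 and 0.938). Within date 2 the interaction was 0.07 ± 0.32 for Gadd45b, -0.17 ± 0.17 for Sertad1, -0.24 ± 0.14 for Btg2 and -0.00749 ± 0.12 for Ppp1r15a, with adjusted p of 0.713 to 0.999.

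Old mice had more of 5 of the 6 mRNAs than young mice, in both arms. In vehicle libraries the 5 genes called higher in old mice compare with 8.47% of 13369 genes, and in dmPGE2 libraries the same 5 compare with 7.85% of 13279 genes. Both arms hold the same 8 mice, so they are not independent. Gadd45g had the largest age difference of the 6 in both arms. With vehicle its 4 young libraries held 5.56 to 8.75 CPM (mean 7.37 ± 1.44 SD, n = 4) and its 4 old libraries 26.6 to 50.5 CPM (36.1 ± 10.4 SD, n = 4), with no overlap. The old level was 4.88-fold the young level with vehicle (log2 2.29 ± 0.23, adjusted p = 1.53e-04) and 3.65-fold with dmPGE2 (log2 1.87 ± 0.21, adjusted p = 3.31e-04). Within dates it was 2.28 ± 0.34 on date 1 and 2.30 ± 0.34 on date 2 in vehicle libraries. In dmPGE2 libraries it was 2.19 ± 0.28 on date 1 and 1.54 ± 0.27 on date 2, which is 4.57-fold and 2.92-fold. All 4 values passed, and the difference between dates was not tested.

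Btg2 was 3.28-fold higher in old mice with vehicle (log2 1.71 ± 0.32, adjusted p = 0.0131) and 2.24-fold with dmPGE2 (1.16 ± 0.16, adjusted p = 0.00117). Its young and old vehicle libraries overlapped over both dates together and did not overlap within either date. Within dates the vehicle difference was 2.29 ± 0.32 on date 1 and 1.15 ± 0.30 on date 2, the latter not passing (adjusted p = 0.0593). Ppp1r15a was 1.95-fold higher with vehicle (0.96 ± 0.16, adjusted p = 0.00373) and 1.58-fold with dmPGE2 (0.66 ± 0.08, adjusted p = 5.70e-04). Within date 2 its vehicle difference was 0.62 ± 0.17 and did not pass (adjusted p = 0.0523).

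Gadd45b was 2.06-fold higher in old mice with vehicle (1.04 ± 0.20, adjusted p = 0.00577) and 2.75-fold with dmPGE2 (1.46 ± 0.19, adjusted p = 8.23e-04). On date 1 alone the vehicle difference was 0.93 ± 0.30 and did not pass (adjusted p = 0.103). Sertad1 had the smallest called age difference, 1.42-fold with vehicle (0.50 ± 0.13, adjusted p = 0.0226) and 1.57-fold with dmPGE2 (0.65 ± 0.16, adjusted p = 0.0207). It passed on neither date alone in either arm, with values of 0.36 to 0.80. Its vehicle call was lost without mouse 483, 484 or 485 (adjusted p = 0.0511 to 0.0600) and its dmPGE2 call without mouse 477, 478, 479, 480, 484 or 485 (adjusted p = 0.0532 to 0.0809). Gadd45a did not differ detectably by age, at 0.08 ± 0.18 with vehicle and -0.18 ± 0.20 with dmPGE2 (adjusted p = 0.802 and 0.599).

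Marker genes also differed by age with vehicle, where 8.47% of all genes were called higher in old mice and 8.86% lower. Of 12 stem cell markers 8 were called higher and 1 lower in old mice with vehicle (median log2 change 0.61), the direction of the 5 genes. Their sum was 4590 to 4889 CPM in young and 5212 to 6028 CPM in old vehicle libraries on date 1, and 3210 to 3388 and 4503 to 4848 CPM on date 2, with no overlap on either date. Of 9 erythroid markers 3 were called lower and none higher, and all 9 had a negative value (median -0.99). Of 11 tested granule markers 4 were called lower and 1 higher (median -0.93). The 1 stem cell marker lower and the 1 granule marker higher are near those shares of all genes. The granule sum, to which Prtn3 alone gave at least 108 CPM in every library, moved in opposite directions on the 2 dates. Its level in vehicle libraries was 128 to 162 CPM in young and 263 to 302 CPM in old mice on date 1. On date 2 it was 3071 to 4262 CPM in young and 1828 to 2036 CPM in old mice. The part of these markers in the age differences was not tested.

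The date moved the vehicle libraries of 4 of the 6 genes, against 11.0% of 13369 genes called in either direction. All 4 were higher on date 2. Btg2 was 6.83-fold higher on date 2 (log2 2.77 ± 0.34, adjusted p = 0.00243) and Ppp1r15a 3.17-fold (1.67 ± 0.17, adjusted p = 1.49e-04). Gadd45a was 2.45-fold higher (1.29 ± 0.18, adjusted p = 8.08e-04) and Gadd45b 1.96-fold (0.97 ± 0.20, adjusted p = 0.0110). Within young or within old mice alone, Gadd45b did not pass (0.86 and 1.08, adjusted p = 0.122 and 0.0967). Sertad1 at 0.30 ± 0.13 and Gadd45g at 0.19 ± 0.22 did not pass (adjusted p = 0.176 and 0.634).

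In the dmPGE2 libraries 1 of the 6 differed by date, Gadd45a, a count near the 11.7% of 13279 genes called in either direction. Btg2 changed there by -0.22 ± 0.16, Ppp1r15a by -0.12 ± 0.08, Gadd45b by -0.06 ± 0.19, Gadd45g by -0.03 ± 0.21 and Sertad1 by -0.34 ± 0.16, with adjusted p of 0.210 to 0.949. Within old mice alone, in the same order of genes, the changes were -0.51 ± 0.19, -0.17 ± 0.12, -0.32 ± 0.25, -0.33 ± 0.26 and -0.49 ± 0.22. None passed edgeR's test (adjusted p of 0.218 to 0.583). Within young mice they were 0.073, -0.075, 0.23, 0.31 and -0.18. The dates thus stood apart in the vehicle levels of Btg2, Ppp1r15a and Gadd45b, and no difference passed in their dmPGE2 levels. The date difference in response uses these same libraries and is not independent of it.

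Gadd45a was the 1 gene of the 6 called by date in both arms, and it was called in no comparison of dmPGE2 or age. Its 8 libraries of date 1 held 10.4 to 16.0 CPM and its 8 libraries of date 2 held 21.1 to 41.3 CPM, with no overlap. The dmPGE2 libraries were 2.66-fold higher on date 2 (log2 1.41 ± 0.20, adjusted p = 0.00116). The summed neutrophil and granule markers separated the dates in the same direction, and so did the monocyte and macrophage markers. With vehicle, 8 of 9 erythroid markers were called higher on date 2 and 8 of 12 stem cell markers were called lower. E230016M11Rik, a gene on the other strand whose exons share up to 238 bases with those of Gadd45a on the minus strand, was 4.95 to 8.02 CPM on date 1 and 12.4 to 16.8 CPM on date 2. It rose by 1.33 ± 0.21 with vehicle and 1.14 ± 0.20 with dmPGE2 (adjusted p = 0.00188 and 0.00470). Whether counting used strand is not stated, so reads of the pair cannot be told apart in the shared bases. Ppp1r15a shares 11 bases of exon with Tulp2, which stayed between 0.762 and 2.91 CPM in all 16 libraries.

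**Figure D4:**
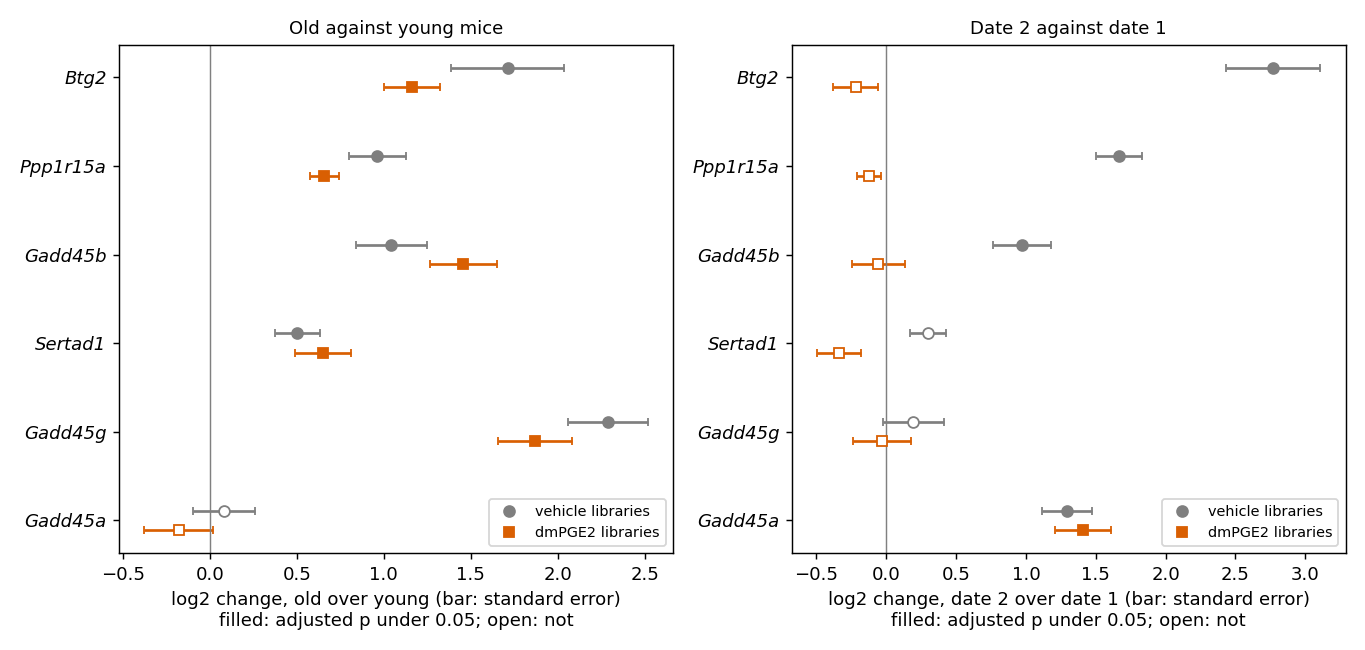
log2 change of each gene for old over young mice (left) and for date 2 over date 1 (right), in vehicle libraries (grey circles) and dmPGE2 libraries (orange squares), with the standard error as a bar; filled symbols passed the test. Gadd45g lies farthest right by age, and by date Btg2 and Ppp1r15a are high in vehicle libraries alone while Gadd45a is high in both arms.

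Relatives and partners of the 6 genes are given list by list. Of 19 tested BTG/TOB and CCR4-NOT genes, 4 were called higher on date 1, against 2.42% of all genes, and none lower. They were Tob2 (0.88 ± 0.07), Btg1 (0.58 ± 0.06), Tob1 (0.53 ± 0.11) and Cnot1 (0.32 ± 0.07), the scaffold of the deadenylase. None of the 19 was called on date 2. The list median was 0.06 on date 1, beside -0.00393 for all genes. Btg1, an antiproliferative relative of Btg2, held 68.2 to 76.5 CPM in young vehicle libraries of date 1 and 203 to 218 CPM in those of date 2, a rise by date of 1.28 ± 0.11 in vehicle libraries. Btg2 held 69.1 to 89.3 CPM and 739 to 866 CPM in the same libraries.

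Of the 24 genes around eIF2alpha and the integrated stress response, 4 were called higher on date 1, against 2.42% of all genes, and none lower. They were Cebpb (2.86 ± 0.09), Atf4 (1.44 ± 0.06), Ddit3 (0.70 ± 0.11) and Ppp1r15b (0.39 ± 0.07). Atf4 and Ddit3 encode stress transcription factors that act on the Ppp1r15a gene, and Ppp1r15b encodes the constitutive partner of the same phosphatase. Cebpb (0.67 ± 0.09) and Atf4 (0.44 ± 0.06) were called on date 2. Atf4 went from 94.6 to 99.9 CPM in young vehicle libraries of date 1 to 231 to 240 CPM with dmPGE2. The median of the 24 was 0.02 on date 1, and most of the list was not called. By age in vehicle libraries 4 of 23 were called higher, led by Nupr1 (3.10 ± 0.15), Vldlr (1.63 ± 0.22) and Trib3 (0.76 ± 0.16), and 3 were called lower. Over all genes 8.47% were called higher and 8.86% lower in that comparison.

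Among 29 p53 target genes, 6 were called higher and 1 lower on date 1, against 2.42% and 0.502% of all genes. Cdkn1a, which encodes the CDK inhibitor p21, rose by 3.98 ± 0.11 on date 1 and by 1.06 ± 0.09 on date 2. Its young vehicle libraries held 6.81 and 9.25 CPM on date 1 and 58.5 and 88.6 CPM on date 2. With dmPGE2 they held 131 to 145 CPM and 151 to 189 CPM. Plk2 (2.15 ± 0.08) and Plk3 (1.79 ± 0.18), stress-responsive kinases, also rose on date 1, and Sesn1, a sestrin, fell by 0.40 ± 0.07. Mdm2, the p53 ubiquitin ligase, held 79.4 to 97.4 CPM in vehicle and 107 to 122 CPM in dmPGE2 libraries of date 1. It rose by 0.39 ± 0.08 on date 1 (adjusted p = 0.0246), and its change of 0.23 ± 0.07 over all mice did not pass (adjusted p = 0.212). The median of the 29 was 0.07 on date 1.

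Of 20 tested GADD45 partner genes, Cdkn1a, which is also on the p53 list, was the 1 gene called on either date. Over all genes 2.42% were called higher on date 1 and 0.366% on date 2. The date 1 count is near that background. Map3k4 changed by 0.08 ± 0.09 over all mice (adjusted p = 0.781). By age in vehicle libraries, 5 of the 20 were called lower in old mice, against 8.86% of all genes. They included Pcna (-0.68 ± 0.07), Ccnb2 (-1.33 ± 0.14), Cdk1 (-1.11 ± 0.15) and Ccnb1 (-0.97 ± 0.17), all genes of DNA replication and mitosis. Cdkn1a was higher in old mice at 1.03 ± 0.20, and 3 of the 20 were called higher in all, against 8.47%.

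The cyclin D, CDK4 and E2F list, which holds the relatives of Sertad1, had 1 call of 22 with dmPGE2 on date 1, Sertad2 (0.64 ± 0.12). Over all genes 2.42% were called higher there, so the count is near that background. Sertad3 and Cdca4, other SERTA domain genes, changed by -0.28 ± 0.10 and -0.07 ± 0.06 over all mice and did not pass (adjusted p = 0.232 and 0.695). Over all mice the retinoblastoma gene Rb1 was the 1 call (0.41 ± 0.08, adjusted p = 0.0379), against 0.509% of all genes called higher. By age in vehicle libraries 8 of 21 were called lower and 2 higher in old mice, against 8.86% and 8.47% of all genes. The higher count is near that background. Those lower included E2f1 (-0.93 ± 0.16), E2f2 (-0.97 ± 0.18), Tfdp1 (-0.48 ± 0.08) and Rbl1 (-0.69 ± 0.13), which encode E2F factors, their dimer partner and a pocket protein.

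The immediate-early genes, which are switched on within minutes of a stimulus without new protein, also rose. On date 1, 24 of 27 were called higher, against 2.42% of all genes. The median was 1.90, beside 1.49 for the 6 genes. On date 2, 10 of 27 were called higher, against 0.366% of all genes. The median was 0.51, beside 0.56 for the 6. Nr4a1, an orphan nuclear receptor, rose by 6.10 ± 0.08 on date 1 and 0.83 ± 0.07 on date 2, and Fos, a subunit of AP-1, by 1.63 ± 0.05 and 0.44 ± 0.05. The response was called lower on date 2 than on date 1 for 23 of the 27, against 1.01% of all genes. None of the 27 had a difference above 0. By age 12 of the 27 were called higher in old mice with vehicle and 14 with dmPGE2, against 8.47% and 7.85% of all genes. None was called lower, against 8.86% and 6.41%. By date 23 were higher on date 2 with vehicle, while with dmPGE2 1 was higher and 1 lower, against 7.67% and 4.05% of all genes. Young vehicle libraries of Nr4a1 held 35.9 and 46.2 CPM on date 1 and 1354 and 1626 CPM on date 2.

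Likeness of pattern was measured as the root-mean-square difference of log2 CPM, each gene centred on its mean, over the 16 libraries and 10703 genes. For Ppp1r15a the closest genes were Junb (0.13), Egr1 (0.22) and Klf2 (0.26), all 3 on the immediate-early list. For Btg2 they were Socs3 (0.29), Cdkn1a (0.35) and Fosl2 (0.39), and for Gadd45b Rrad (0.33), Zfp36 (0.35) and Egr1 (0.36). Sertad1 was closest to Nkx2-3 (0.21), Tsc22d1 (0.24) and Pde4b (0.25). Gadd45g was closest to Itgb3 (0.34), Ehd3 (0.37) and Apbb2 (0.38), and Gadd45a to Ctsh (0.20), Ap3s1 (0.21) and Dok3 (0.24). No gene was among the 3 closest of both Gadd45b and another Gadd45 gene. The 16 points share mouse, date and library depth, so these values are descriptions.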

How the data were processed

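RNA of sorted mouse hematopoietic stem cells was sequenced from 16 libraries, a vehicle and a dmPGE2 library of each of 8 mice. The deposited table holds raw read counts per gene, made by the authors and not normalized. Tools listed by the submitters' processing notes are featureCounts, Subread 1.5.1 and STAR 2.5.2b, with genome build mm10, and the labels' protocols name Nextera XT libraries. Which annotation was counted, and whether by strand, is not stated in the labels or the table. Every gene of the table had over 0.5 CPM in at least 2 libraries, so rarer genes are absent. The table ended in 2504 empty lines, which were left out, and 0 value columns were unmatched. A count of 0 in a library allows up to 0.231 CPM, for counting error only.

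The 6 genes and all lists were chosen with earlier results of these data known. Counts were scaled by TMM (factors 0.964 to 1.05), filtered with filterByExpr and tested with edgeR 4.0.16 (quasi-likelihood, robust) in R 4.3.3, with Benjamini-Hochberg adjustment over all tested genes and a threshold of 0.05. SE is the log2 change divided by the root of the test's F. dmPGE2 effects were fitted with mouse as a block and dmPGE2 terms by age (6 residual degrees of freedom), or by age and date (4). Age and date effects were fitted within each arm, on 8 libraries with both as terms (5). The pairing comes from the design text, by which each mouse's sample was divided. Deviations of paired libraries from their group means correlated at 0.375 to 0.626, and at 0.0141 to 0.181 once date means were removed too. Mice are the replicates. The test was also run on simulated counts whose dmPGE2 effects were the same on both dates. Those counts cannot check it where the response differs by date. DESeq2 1.42.0 and the settings given in the closing section were alternatives. Named genes are the 6 members, set paralogs and partners, up to 4 called genes of each list by smallest p, and the 3 genes most alike to each member. Log2 CPM for likeness used a prior count of 2 and genes with a mean of at least 2. Promoter windows come from RefSeq on GRCm38.p6, with 6 of 6 genes matched by symbol. Positions and exons of the 6 genes come from the deposited table on mm10. The exons of the overlapping genes come from the GENCODE mouse annotation, which may differ from the annotation counted.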

Additional observations from a re-analysis of the deposited data

Results flagged for a closer look

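For Gadd45g, the lowest of the 4 old dmPGE2 libraries, 25.5 CPM in mouse 486, stood apart from the nearest library at 39.7 CPM. Its gap was 0.832 of the range of the group (Dixon's test at 95% for 4 samples). For Sertad1, the highest of the 4 old vehicle libraries, 105 CPM in mouse 485, stood apart from the nearest at 71.5 CPM, with a gap of 0.834 of the range. Chance gives about 1 such library in 20 groups, and 24 groups of 4 were examined. Both mice are of date 2.

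The response to dmPGE2 differed between the dates for 3 genes by the test of the difference. It was lower on date 2 by -2.97 log2 units for Btg2, -1.78 for Ppp1r15a and -0.64 for Sertad1. Beside it, the vehicle level of Btg2 and Ppp1r15a was higher on date 2 and the granule marker sum was higher in both arms. The part of these in the difference was not tested, and what the dates stand for is not stated.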

How the results depend on the processing

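Counts here are of the 6 genes called. Over all mice 2 became 4 with DESeq2 and 4 with dmPGE2 terms by age and date. In young mice 0 became 3 with DESeq2, 4 with those terms, 4 within date 1 and 3 within date 2. In old mice 0 became 2, 4, 4 and 1 under the same settings. Of all genes these settings called 277, 257, 249 and 47 in young and 114, 210, 247 and 19 in old mice. On date 2, 3 became 0 with no replicate block, while the log2 change of Btg2 stayed at 0.81. Without the block all genes called on date 2 fell from 54 to 10. For age in vehicle libraries 5 became 1 with no date term, 3 within date 1 and 2 within date 2. All genes called there went from 2318 to 971, 865 and 1057. The fit by age and date called 347 of all genes over all mice and DESeq2 443, against 85.

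Directions turned for values that had not passed. Gadd45a over all mice was 0.00720 with no replicate block. By age it was -0.028 with no date term and -0.19 within date 2 in vehicle libraries, and 0.16 within date 1 in dmPGE2 libraries. Within date 2, Gadd45g in old mice was -0.21 and the interaction of Sertad1 -0.17. By date in the dmPGE2 libraries of young mice, Gadd45b was 0.23, Gadd45g 0.31 and Btg2 0.073.

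Leaving out each mouse in turn gave 0 to 2 called over all mice. The interaction ran from -1.18 to 0.15 for Btg2, -0.68 to 0.10 for Ppp1r15a and -0.043 to 0.33 for Sertad1. Gadd45g ran from -0.061 to 0.18 in old mice, -0.079 to 0.38 on date 2 and -0.43 to 0.033 for the date difference in response. By date it ran from -0.035 to 0.37 with vehicle and -0.21 to 0.18 with dmPGE2, and Gadd45b from -0.28 to 0.11 with dmPGE2. Gadd45a ran from -0.024 to 0.076 on date 2, and by age from -0.048 to 0.21 with vehicle and -0.30 to 0.00715 with dmPGE2. The cause of these changes was not tested. Size factors in place of TMM and no filter on low counts turned no direction and moved no count of the 6 by over 1.5 times. With 2 mice per age and date, responses within a date and age rest on 2 pairs.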
